A study of Drosophila melanogaster with 2 samples.

Results

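The nuclear transfer RNA (tRNA) genes of Drosophila melanogaster were examined for binding regions of a GFP-tagged transcription factor. The set comprised the 290 genes of biotype tRNA on the 6 main chromosome arms of the Ensembl annotation, out of 18164 annotated genes without transposable elements. A gene was counted as having a nearby region when the summit of a deposited region lay in the gene or at most 1 kb from it. Whole embryos of mixed sex, aged 4 to 24 h, came from a transgenic line that stably expresses the zinc finger protein tiptop (tio) with GFP at its C terminus. Chromatin immunoprecipitation and sequencing (ChIP-seq) with an antibody against GFP was done in 2 biological replicates, which form 1 group. There was therefore no comparison between conditions, and no p-value is given. In whole embryos the cells that gave a region are not known, and which cells expressed the fusion protein is not given in the sources used here.

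tRNAs carry amino acids to the ribosome, and their genes are transcribed by RNA polymerase III. The promoter of a tRNA gene lies inside the transcribed part, as the A box and the B box, which are bound by the factor TFIIIC. TFIIIC places TFIIIB just upstream of the gene, TFIIIB recruits the polymerase, and transcription ends in a run of T after the gene. Many tRNA genes exist in identical copies, and many lie in clusters or in introns of protein-coding genes.

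The gene sequences below belong to the tRNA genes at the 4 strongest of the reproducible regions within 1 kb of a tRNA gene. A neighbouring tyrosine tRNA gene that shares the strongest of these 4 regions is included. The sequences were read from the RefSeq genome sequence of release 6 (dm6), on the strand of the gene. Capitals mark the match to the B box, searched as GTTCGANNC or GTTCAANNC. The gene tRNA:Tyr-GTA-1-8 lies at chr3R:8669081-8669174 on the minus strand, and tRNA:Tyr-GTA-1-7 lies at chr3R:8668612-8668705 on the same strand. Both hold an intron of 21 bp. The gene tRNA:Val-TAC-1-1 lies at chr3L:5356343-5356415 on the plus strand, tRNA:Gln-TTG-2-1 at chrX:3427452-3427523 on the minus strand, and tRNA:Leu-TAA-2-1 at chr3R:24112964-24113047 on the plus strand.
tRNA:Tyr-GTA-1-8: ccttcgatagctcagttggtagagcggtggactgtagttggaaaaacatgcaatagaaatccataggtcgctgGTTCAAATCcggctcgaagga
tRNA:Tyr-GTA-1-7: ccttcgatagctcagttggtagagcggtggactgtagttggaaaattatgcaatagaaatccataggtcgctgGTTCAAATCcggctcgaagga
tRNA:Val-TAC-1-1: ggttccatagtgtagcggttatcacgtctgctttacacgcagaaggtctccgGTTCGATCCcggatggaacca
tRNA:Gln-TTG-2-1: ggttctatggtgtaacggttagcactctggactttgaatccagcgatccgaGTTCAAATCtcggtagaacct
tRNA:Leu-TAA-2-1: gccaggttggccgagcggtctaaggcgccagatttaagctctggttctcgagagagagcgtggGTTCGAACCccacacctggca

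The next sequences are the 61 bp centred on the summits of the same 4 regions, each given on the plus strand of dm6. They show the DNA at the summit, which in no case was the tRNA gene itself. Capitals mark TTAAAA, a sequence searched on both strands because earlier results of these data pointed to it. The windows are chr3R:8669358-8669418, chr3L:5355509-5355569, chrX:3427698-3427758 and chr3R:24112748-24112808, in the order of the names.
summit near tRNA:Tyr-GTA-1-8: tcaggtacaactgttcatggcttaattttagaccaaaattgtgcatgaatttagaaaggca
summit near tRNA:Val-TAC-1-1: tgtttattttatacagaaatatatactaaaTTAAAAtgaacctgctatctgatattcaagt
summit near tRNA:Gln-TTG-2-1: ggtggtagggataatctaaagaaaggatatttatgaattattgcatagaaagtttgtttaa
summit near tRNA:Leu-TAA-2-1: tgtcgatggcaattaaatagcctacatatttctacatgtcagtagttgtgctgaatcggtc

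Few tRNA genes had a reproducible region near them. The deposited list thresholded by irreproducible discovery rate (IDR), which keeps peaks whose ranks repeat between replicates, held 3793 peaks. Of the 290 tRNA genes, 18 (6.21%) had an IDR summit within 1 kb, against 16.3% of all 18164 genes and 18.0% of the 13945 protein-coding genes by the same rule. Long genes span more sequence, so the count was repeated from the 5′ end alone. By that rule 17 tRNA genes (5.86%) had a summit, against 10.1% of all genes and 9.44% of the 3261 ncRNA genes. Small nucleolar RNA genes, which are also short, stood at 23 of 269 (8.55%), and small nuclear RNA genes at 6 of 32 (18.8%). Pseudogenes stood lower, at 4 of 268 (1.49%), and ribosomal RNA genes at 0 of 99. At 2 kb from the 5′ end the share was 40 of 290 tRNA genes (13.8%), against 14.4% of all genes. From the 5′ end the gap seen at 1 kb was thus nearly gone. Measured from the gene span it remained at 2 kb, with 14.1% of tRNA genes against 20.3% of all genes. The differences between gene classes are descriptions, and their sizes were not tested. The median distance between a tRNA gene and its nearest IDR summit was 12819 bp.

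The 18 genes shared 13 summits, since 3 summits had 2 or 3 tRNA genes within 1 kb. These 13 were 0.343% of the 3793 IDR summits, and the stretches within 1 kb of a tRNA gene covered 0.297% of the arms. The signal value of a peak is the authors' own, on a scale that no source states, and it was used only to rank peaks within a list and to set matched peaks side by side. The pooled signal of the 13 summits had a median of 126.2 and ranged between 92.3 and 478.2. All IDR peaks had a median of 145.0 and a range of 87.5 to 2078. Of the 13, 6 lay above the median of all IDR peaks, and their ranks ran between 221 and 3525. The number of reads behind a signal value is unknown.

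**Figure D1:**
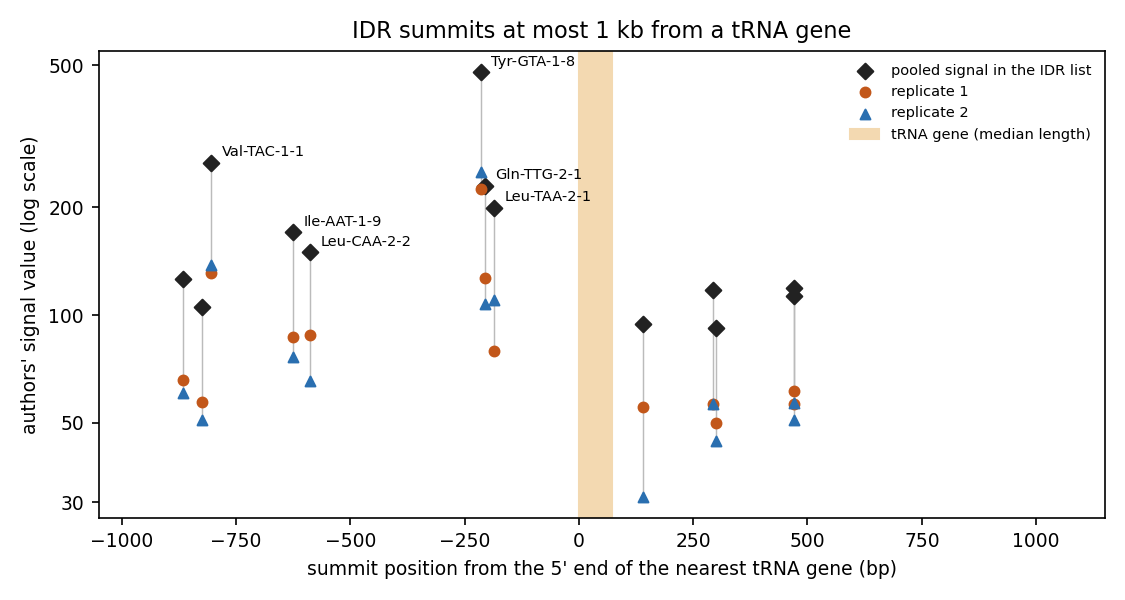
Signal of the 13 IDR summits within 1 kb of a tRNA gene (y axis, the authors' value, log scale) against the summit's position from the 5′ end of the nearest tRNA gene (x axis, bp, negative upstream). Diamonds are the pooled signal, circles replicate 1 and triangles replicate 2, and the shaded band is a gene of the median length of 73 bp. The 6 summits with the highest pooled signal lie upstream, and no summit falls in the band.

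The strongest region near a tRNA gene had its summit on 3R at 8669388, 214 bp upstream of tRNA:Tyr-GTA-1-8 and 683 bp from tRNA:Tyr-GTA-1-7. Its signal was 225.9 in replicate 1 and 251.1 in replicate 2, with 478.2 in the pooled list, rank 221. The tyrosine tRNA genes there lie in introns of the overlapping genes pink (p), needed for eye pigment granules, and CG8036. The summit was 230 bp from a transcription start site (TSS) of CG8036, so it was about as close to that TSS as to the tRNA gene.

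The second region, at 5355539 on 3L, lay 804 bp upstream of tRNA:Val-TAC-1-1, in an intron of lamina ancestor (lama). It had signals of 131.1 in replicate 1 and 138.0 in replicate 2, and 266.7 in the pooled list. The TSS of CG46456 was nearer to this summit, at 193 bp, than the tRNA gene was. The fourth region showed the other order. It lay at 24112778 on 3R, 186 bp upstream of tRNA:Leu-TAA-2-1 and 389 bp from the TSS of CG13605. Its signals were 79.4 in replicate 1 and 110.2 in replicate 2, with 199.7 in the pooled list.

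The third region stood far from protein-coding starts. Its summit, at 3427728 on X, lay 205 bp upstream of tRNA:Gln-TTG-2-1, in an intron of CG12535, and 8079 bp from the nearest protein-coding TSS, that of CG14269. The signal was 127.2 in replicate 1 and 107.3 in replicate 2, with 230.3 in the pooled list, rank 930. It was the strongest of the summits near tRNA genes that had no protein-coding TSS within 1 kb.

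The other 9 regions had pooled signals between 92.3 and 170.6. The summit 625 bp upstream of tRNA:Ile-AAT-1-9 (2R, 19714940) had signals of 86.9 in replicate 1 and 76.2 in replicate 2. The one 587 bp upstream of tRNA:Leu-CAA-2-2 (3L, 13213522) had 87.8 in replicate 1 and 65.3 in replicate 2, and its nearest protein-coding TSS, that of capricious (caps), a cell surface protein gene, was 15170 bp away. The 3 glycine tRNA genes of the family GCC with an IDR summit each had one of their own, all on 2L. The summit 865 bp upstream of tRNA:Gly-GCC-1-3 (7871984) had 65.9 in replicate 1 and 60.7 in replicate 2, and lay 552 bp from the TSS of Proc, which encodes the neuropeptide proctolin. The summit 400 bp downstream of tRNA:Gly-GCC-1-2 (2032162) had 61.4 in replicate 1 and 50.8 in replicate 2, and that 823 bp upstream of tRNA:Gly-GCC-1-6 (14519514) had 57.1 in replicate 1 and 50.9 in replicate 2. Neither had a protein-coding TSS within 1 kb.

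Glutamate tRNA genes accounted for 6 of the 18 genes, through 2 regions on 2R. At 19727238 a summit lay 222 bp downstream of tRNA:Glu-TTC-1-5 and within 1 kb of tRNA:Glu-TTC-1-6 and tRNA:Glu-CTC-2-1, with signals of 56.5 in replicate 1 and 56.5 in replicate 2. At 16219779, in an intron of the chaperone gene mrj, a summit lay 70 bp downstream of tRNA:Glu-CTC-1-1, 273 bp from tRNA:Glu-TTC-1-2 and 334 bp from tRNA:Glu-TTC-1-1. This was the IDR summit closest to any tRNA gene, and the only one within 100 bp. Its signal was 55.5 in replicate 1 and 31.1 in replicate 2, where it ranked 7251, the lowest replicate rank of the 13.

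The last 2 regions lay close to protein-coding starts. The summit 398 bp downstream of tRNA:Val-CAC-2-5 (3R, 19671879) lay 429 bp from the TSS of the nicotinamidase gene Naam, in whose intron this tRNA gene sits, with 56.4 in replicate 1 and 56.8 in replicate 2. The summit 227 bp downstream of tRNA:Phe-GAA-1-2 (X, 6744244) lay 6 bp from the TSS of RpL17, a gene for a protein of the large ribosomal subunit. It was the weakest of the 13, with 50 in replicate 1 and 44.6 in replicate 2. Of the 13 summits, 7 (53.8%) lay within 1 kb of a protein-coding TSS, against 1661 of all 3793 (43.8%). Counted over genes, 10 of the 18 had a nearby summit without a protein-coding TSS within 1 kb of it.

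Each of the 13 summits had a matched summit within 100 bp in both replicate lists, against 3504 of all 3793. Replicate 1 was higher at 8 of the 13. The log2 ratio of replicate 1 to replicate 2 had a median of 0.16 (SD 0.31, n = 13 summits), against 0.16 (SD 0.46, n = 3504) over all matched IDR peaks. Whether both replicate lists share a scale is unknown. Taking the 3793 strongest regions of each replicate in place of the IDR list gave 19 tRNA genes in replicate 1 and 19 in replicate 2, with 13 in both. The shares of all genes under this cut are not given here. Of the 18 genes of the IDR list, 17 were among those of replicate 1 and 14 among those of replicate 2. The 4 genes missing in replicate 2 were the 3 at the mrj region and tRNA:Phe-GAA-1-2, whose region ranked 3907 there.

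**Figure D2:**
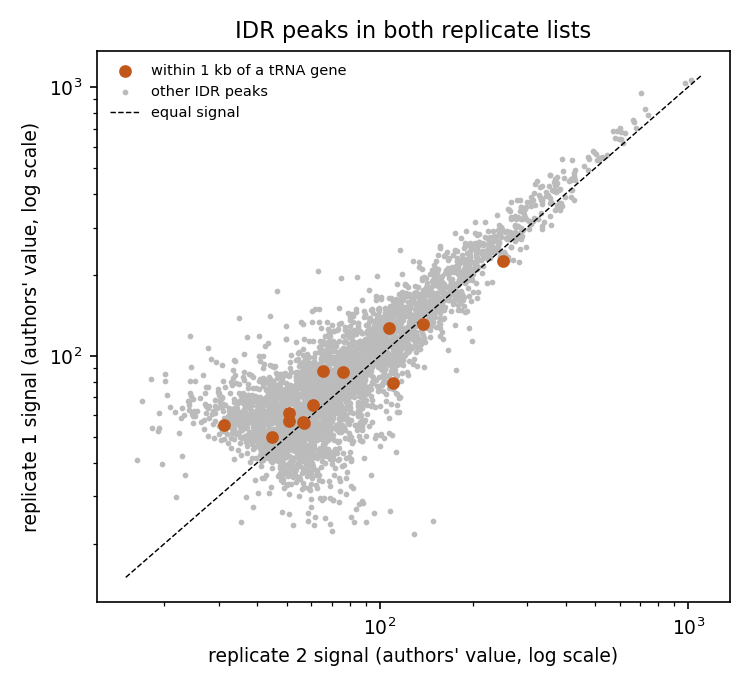
Signal of IDR peaks in replicate 1 (y axis) against replicate 2 (x axis), both as the authors' value on log scales, for peaks matched in both lists. Large orange points are the 13 summits within 1 kb of a tRNA gene, grey points are the other IDR peaks, and the dashed line marks equal signal. The large points lie inside the grey cloud, and the one furthest above the line is the region in mrj.

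Of the 13 summits, 8 were upstream of the nearest tRNA gene, 5 were downstream and 0 were inside. Their median position was -205 bp from the 5′ end, and the median distance to the gene was 398 bp. The upstream side depends on the limit, since among the 8 summits within 500 bp 3 were upstream and the median position was 217 bp. The density of IDR summits was 0 per Mb inside tRNA genes, 17.9 within 100 bp and 77.6 between 101 and 250 bp. The next rings held 22.0 (251 to 500 bp), 30.4 (501 to 1000 bp) and 39.2 per Mb (1001 to 2000 bp), against a mean of 28.3 per Mb over the arms. These rings rest on 0, 1, 5, 2, 5 and 12 summits. Protein-coding TSSs had 64.8 per Mb within 100 bp, 115.3 at 101 to 250 bp and 67.8 at 251 to 500 bp. For tRNA genes over 1 kb from a protein-coding TSS, the ring of 101 to 250 bp held 2 summits, or 41.8 per Mb. The fragments were 200 to 800 bp long, per the labels, which limits how finely a summit places the bound site.

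**Figure D3:**
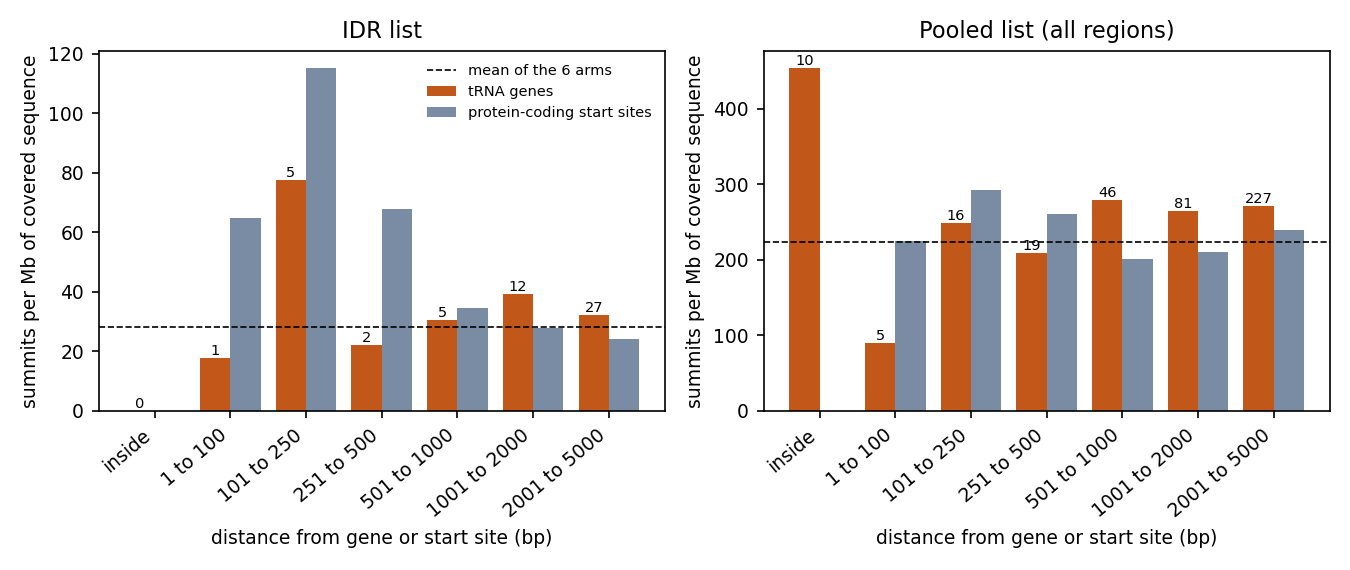
Summits per Mb of covered sequence (y axis) in rings of distance (x axis, bp) around tRNA genes (orange, number of summits above each bar) and around protein-coding start sites (grey-blue, drawn outside the start site only), for the IDR list (left) and the whole pooled list (right). The dashed line is the mean over the 6 arms, 28.3 per Mb in the IDR list and 224.1 in the pooled list. In the IDR list the tRNA bars are at 0 inside the gene and highest at 101 to 250 bp, where the bar stands for 5 summits. In the pooled list the bar inside the gene, 10 summits, is the highest.

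At the limit of 1 kb, the 3 genes just inside were tRNA:Gly-GCC-1-6 at 823 bp, tRNA:Gly-GCC-1-3 at 865 bp and tRNA:Glu-CTC-2-1 at 950 bp. Just outside were tRNA:Glu-TTC-1-4 at 1025 bp from the same summit as tRNA:Glu-CTC-2-1, tRNA:Met-CAT-1-2 at 1073 bp from a summit with a pooled signal of 247.1, and tRNA:Pro-AGG-1-7 at 1086 bp from the summit near tRNA:Leu-CAA-2-2.

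The 290 genes fell into 22 isotypes, counted with initiator methionine and selenocysteine tRNA apart. Among isotypes with 10 or more genes, glutamate had the highest share of genes near an IDR summit, 6 of 19 (31.6%). Tyrosine followed with 2 of 10, glycine with 3 of 20 and valine with 2 of 15. Alanine, arginine, asparagine, aspartate, lysine, proline, serine and threonine tRNA genes had none, among them the largest isotype, arginine with 26 genes. The glutamate genes rest on 2 summits and the tyrosine genes on 1, so these shares do not count independent regions. In the pooled list valine genes led with 8 of 15 (53.3%), followed by glutamate with 10 of 19 (52.6%), and asparagine stayed at 0 of 10.

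**Figure D4:**
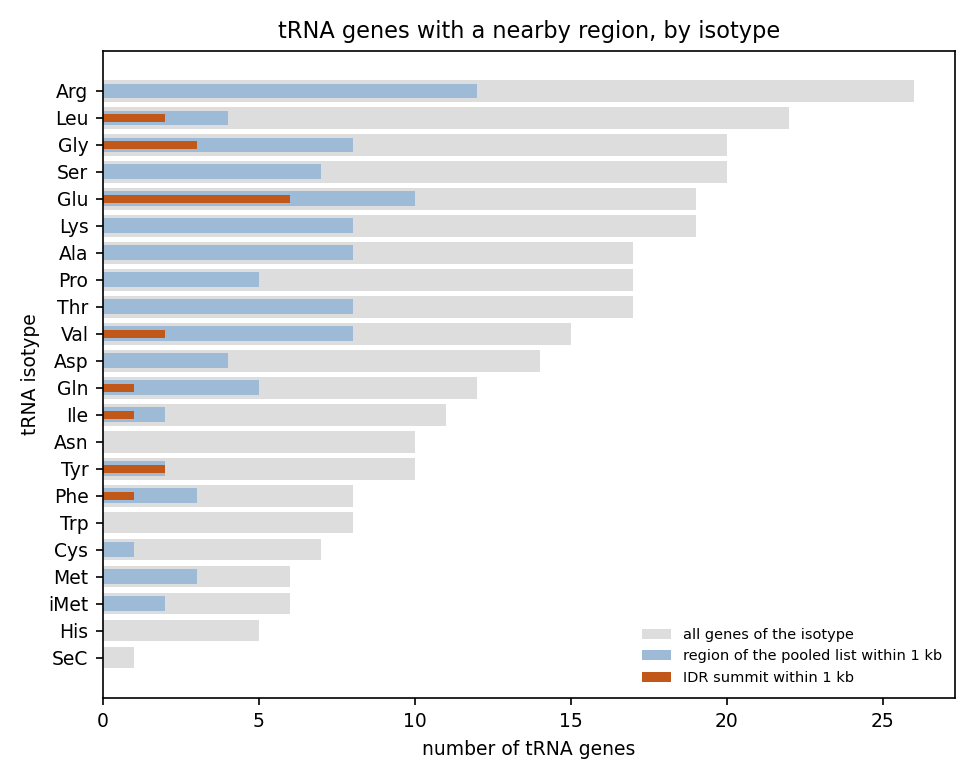
Number of tRNA genes (x axis) of each isotype (y axis). Grey bars are all genes of the isotype, blue bars those with a region of the pooled list within 1 kb and orange bars those with an IDR summit within 1 kb. Glutamate has the longest orange bar, 6 of 19 genes, while arginine, the isotype with the most genes, has 12 of 26 genes in blue and 0 in orange.

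Joined across gaps of at most 5 kb, the 290 genes formed 144 loci, of which 76 were single genes and 68 were clusters with 214 genes in all. IDR summits lay near 13 loci, 6 clusters and 7 single genes. By gene, the share was 7 of 76 (9.21%) for single genes, 8 of 142 (5.63%) in clusters of 2 to 4 and 3 of 72 (4.17%) in clusters of 5 or more. Counted over loci, a summit lay near 7 of 76 single genes, 6 of 68 clusters and 1 of the 10 clusters with 5 or more genes. Most loci of any size thus had none, and so did most of the largest clusters. The cluster of 11 genes for alanine, proline, threonine and valine tRNAs on 3R (17617761 to 17631750) had 0, and so did the cluster of 11 genes at the ecdysone receptor gene EcR on 2R (6161535 to 6171759), of which 8 lie in EcR introns. In the pooled list 6 genes of the 3R cluster and 5 of the EcR cluster had a region nearby, the strongest with signals of 65.7 and 62.1. The cluster of 7 arginine and serine genes on X (14014814 to 14017284) and that of 7 isoleucine and leucine genes in ATP8A on 2R (13430282 to 13432794) had 0 in the IDR list and 0 in the pooled list. The fifth, 5 glutamate and 2 initiator methionine genes on 2R (19725620 to 19728958), holds the region at 19727238. It was the only one of the 10 clusters with 5 or more genes that had an IDR summit.

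The 2 clusters with the highest signal hold 3 genes and 2 genes. The 3 tyrosine genes in p and CG8036 stood at 478.2, and the pair of valine genes beside lama at 266.7. The cluster of 3 proline genes and tRNA:Leu-CAA-2-2 followed at 149.8, the cluster of 7 glutamate and initiator methionine genes at 117.3 and the 3 glycine genes around tRNA:Gly-GCC-1-6 at 105.3. In the tyrosine cluster the third gene, tRNA:Tyr-GTA-1-6, lay beyond 1 kb from the summit.

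The genes were also split by where they lie. Of 156 intergenic tRNA genes 11 (7.05%) had an IDR summit, of 127 in introns of protein-coding genes 7 (5.51%), and of 7 overlapping exons 0. With a protein-coding TSS within 1 kb of the 5′ end the count was 6 of 79 (7.59%), and without one 12 of 211 (5.69%). Of the 52 genes whose sequence occurs once, 6 (11.5%) had an IDR summit, among them the 2 tyrosine genes that share 1 summit. Of the 238 genes that share their sequence with at least 1 other tRNA gene, 12 (5.04%) had one. In the pooled list the order turned, with 28.8% of the genes with a sequence of their own against 35.7%. The shares were 38.5% against 39.5% in replicate 1 and 46.2% against 44.1% in replicate 2. The set holds 95 distinct sequences, and the most frequent has 13 copies. How reads that match several copies were handled is not given in the sources used here, and its part in the counts was not tested. Of the 16 genes with an intron, 3 had an IDR summit, the 2 tyrosine genes and tRNA:Leu-CAA-2-2.

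Weaker regions lay near many more tRNA genes, and how their share compares with that of all genes depends on the rule. The pooled list and each replicate list held 30000 regions, background included. Within 1 kb of the 5′ end the tRNA share was close to that of all genes in the pooled list and higher in each replicate list. The differences were not tested, and genes in a cluster can share a region. By this rule 99 tRNA genes (34.1%) had a region of the pooled list, against 33.2% of all genes. In replicate 1 the count was 111 (38.3%), against 34.8% of all genes, and in replicate 2 it was 126 (43.4%), against 37.7%. Measured from the gene span, the tRNA share was the lower one. By that rule 100 tRNA genes (34.5%) had a pooled region, against 46.0% of all genes. The count was 114 (39.3%) in replicate 1, against 48.8%, and 129 (44.5%) in replicate 2, against 51.5%. A region in both replicate lists was found for 71 tRNA genes (24.5%), and the same share over all genes is not given here. At 2 kb from the gene span the order turned, with 175 tRNA genes (60.3%) near a pooled region, against 55.2% of all genes. Closer in, 12 tRNA genes (4.14%) had a pooled summit within 100 bp of the 5′ end, against 4.80% of all genes.

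The 100 genes shared 96 pooled regions, 13 of them the IDR summits. Their median signal was 40.4, against 41.4 over the whole pooled list. Of the 96, 32 had a matched summit in both replicates, 55 in 1 replicate and 9 in neither, and 55 lay upstream and 31 downstream of the nearest tRNA gene. The matched shares over the whole pooled list are not given here, so the matches are not read as particular to these regions. The share of pooled regions near a tRNA gene was 0.343% among ranks 1 to 3793, 0.322% among ranks 3794 to 10000, 0.280% among ranks 10001 to 20000 and 0.350% among the rest. The strongest regions outside the IDR list were at tRNA:Arg-TCT-1-1 (565 bp downstream), with 48.0 in replicate 1, 34.5 in replicate 2 and 85.6 in the pooled list, and at tRNA:Arg-CCT-1-2 (214 bp upstream), with 27.2 in replicate 1, 50.7 in replicate 2 and 75.2 in the pooled list.

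The summits inside tRNA genes were weak ones. In the pooled list 10 summits lay inside a tRNA gene, or 454 per Mb against a mean of 224.1 over the arms. In the replicate lists the density inside was 227.0 per Mb in replicate 1 (5 summits) and 181.6 in replicate 2 (4 summits). The 10 pooled summits ranked between 12586 and 29983, 9 were in genes that share their sequence with another gene, and 0 were matched within 100 bp in both replicates. How often pooled regions of such ranks were matched elsewhere is not given here. The best-ranked one, in tRNA:Gln-CTG-2-3, had a signal of 44.5 in the pooled list and 23.2 in replicate 2, with no match in replicate 1. Of all 14 pooled regions outside the IDR list that lay inside or within 100 bp of a tRNA gene, 1 was matched in both replicates, 97 bp downstream of tRNA:Arg-TCT-2-1, with 20.5 in replicate 1 and 25.7 in replicate 2.

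The promoter elements were present in nearly all members. A form of the B box was found in 271 of 290 genes (93.4%), as GTTCGANNC in 160 and GTTCAANNC in 111, and TTTT began within 30 bp after the 3′ end in 277 (95.5%). A match to the A box was found in 271 genes. Among the 18 genes near an IDR summit, 16 had the A box, 13 had GTTCGANNC and 5 GTTCAANNC, and 18 had TTTT. The 18 genes had a G+C content of 56.3 ± 6.39%, against 58.3 ± 4.16% in the other 272 (mean ± SD over genes). In the 100 bp upstream it was 35.6 ± 5.95%, against 37.1 ± 7.87%. At the summits themselves, windows of 201 bp were searched on both strands. GTTCGANNC was found in 1 of 13 (7.69%), against 57 of all 3793 IDR windows (1.50%). The 1 window was that of the summit 70 bp from tRNA:Glu-CTC-1-1, and it reaches into this gene. Whether the match is the gene's own B box is not given here. TTAAAA was found in 7 of 13 (53.8%), against 54.0%, and TATCGATA in 0 of 13, against 1.48%. The windows had a median G+C content of 34.8%, against 33.3% over all IDR peaks.

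Protein-coding genes of the tRNA pathway were counted by the gene-span rule, for which 18.0% of protein-coding genes had an IDR summit. Of 81 genes on 5 lists, 20 had one. At 5 of them, Tcs5, Bdp1, Elp6, Elp5 and LeuRS-m, the signal was above the 478.2 of the strongest region near a tRNA gene. The signal given for a gene is that of the strongest summit within 1 kb of its span, wherever it lies. At LeuRS-m this summit was 830 bp from the gene, and at Elp6, which had 3 such summits, it lay inside the gene. Of 10 genes listed by name as subunits of RNA polymerase III, 2 (20.0%) had a summit, Polr3E with a signal of 436.6 and Polr3G with 101.5. The Polr3G summit lay 911 bp from the gene and 1755 bp from its TSS. Of 9 genes for TFIIIB, the snRNA activating complex and regulators, 4 (44.4%) had one. Bdp1, a TFIIIB subunit, had a summit 67 bp from its TSS with 534.3 in replicate 1, 421.3 in replicate 2 and 949.4 in the pooled list, rank 30. Brf, another TFIIIB subunit, stood at 444.2. The RNA-binding protein gene La stood at 140.6, with a matched summit in replicate 1 only, and Maf1, a repressor of RNA polymerase III, at 108.2, with one in replicate 2 only.

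Aminoacyl-tRNA synthetases join each amino acid to its tRNA. Of 20 cytosolic ones 5 (25.0%) had an IDR summit, IleRS with a signal of 456.0, AspRS with 401.9, GluProRS with 319.3, HisRS with 92.8 and GlyRS with 89.0. Of 15 mitochondrial ones 1 (6.67%) had a summit, LeuRS-m with 480.5. The gene GluProRS encodes the enzyme for glutamate and proline.

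Of 27 genes for tRNA modification and processing 8 (29.6%) had a summit. The strongest was at Tcs5, named for threonylcarbamoyl adenosine synthesis on tRNA, with 675.8 in replicate 1, 622.3 in replicate 2 and 1298.9 in the pooled list, rank 10. Subunit genes of the Elongator complex, which modifies the wobble uridine of tRNAs, followed, Elp6 with 702.0 and Elp5 with 622.0. The methyltransferase subunit gene Trmt6 stood at 312.7, RNaseZ, which trims the 3′ end of tRNA precursors, at 134.3, and the RNase P subunit genes Rpp14a and Rpp14b shared a summit with 185.6. The rule counts every gene within 1 kb of a summit, so a region counted here can lie as close to a neighbouring gene.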

How the data were processed

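ChIP-seq of tio-GFP in whole embryos was analysed from peak lists in 2 replicates of 1 group. Per the notes deposited with each sample, the authors made a replicate list from its alignments and 1 control, a pooled list from both replicates and the control, and an IDR list from these. Aligner, peak caller and the threshold on IDR were not given in the sources used here, and reads per library are unknown, so no counting interval is given. The deposited signal value of each peak is the authors' own. The deposited q-value column is on a −log10 scale and was not used to filter. The summit is the peak start plus the deposited offset, 1-based on dm6. Lists on dm3 were not used, since the annotation is on dm6 coordinates.

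Genes came from Ensembl release 115 (BDGP6.54) and sequence from RefSeq release 6. Python 3.11.15 with numpy 2.4.6, pandas 2.3.3 and matplotlib 3.10.9 computed distances, checked on planted summits. Summits of different lists were matched within 100 bp. No test was made because there was 1 group. The text names the tRNA genes near the 10 strongest summits, those with a summit within 100 bp, the 5 largest clusters and the 5 with the highest signal, the isotypes with the highest and lowest shares, the 3 genes at each side of 1 kb and pathway genes with a summit, of which 1 is counted but not reported here by name. The weakest summits and the strongest weaker regions were added after their values were seen. Members, lists, motifs and alternatives were chosen with earlier results of these data known. Alternatives were other distances, stronger peaks only, each replicate alone, the peak interval, the 5′ end, other gaps and matching distances.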

Additional observations from a re-analysis of the deposited data

How the results depend on the processing

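Of 47 alternatives, 26 moved a count by over 1.5 times or a value by more than a set spread, and 21 stayed within that. For the median position the spread was the SD of the medians of the 2 replicates. For the log2 ratio of the replicates it was the SD over the 13 summits. With limits of 250 bp, 500 bp and 2 kb, tRNA genes with an IDR summit (18 at 1 kb) came to 6, 10 and 41 (2.07%, 3.45% and 14.1%, against 12.3%, 14.4% and 20.3% of all genes), their summits (13) to 6, 8 and 25, and clusters (6) to 3, 3 and 11. Genes with a pooled region (100) came to 32, 56 and 175 (11.0%, 19.3% and 60.3%, against 33.6%, 39.1% and 55.2% of all genes, so the order turned at 2 kb), and genes whose summit had no protein-coding TSS nearby (10) to 3, 6 and 27. Upstream summits (8) came to 3 at 500 bp and 14 at 2 kb, and the median position, -205 bp, was 217 bp at 500 bp, so the upstream side depends on summits beyond 500 bp. With the stronger 0.5 of the IDR list the counts were 7 genes, 6 summits, 3 clusters and 2 genes without a nearby TSS, with a median position of -400.5 bp, and the upper 0.5 of the pooled list left 59 genes. With 1 replicate left out, the genes were 19 and 19, the summits 14 and 14, the clusters 7 and 6, the pooled genes 129 and 114, the genes without a nearby TSS 10 and 10, and the pathway genes 23 and 21. The median position was then -192 bp without replicate 1 and -182.5 bp without replicate 2, an alternative chosen after seeing the data. Why the counts and positions differed between settings was not tested. Peak intervals in place of summits gave 26 genes. For the stronger 0.5 of a list, the strongest regions of each replicate and the peak intervals, the shares of all genes are not given here. No paired analysis was possible because there was 1 group. The depth is unknown, so a gene without a region cannot be told apart from one below detection.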

Other observations

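Another list held 10 genes chosen by name as other RNA polymerase III transcripts, apart from the 96 5S ribosomal RNA genes. The polymerase that makes each RNA was not checked. Of these 10 genes, 4 had an IDR summit within 1 kb, against 16.3% of all genes. These 4 genes lie at 2 loci, and with the 5S genes, which form a single array, the count was 4 of 106. The strongest region near a gene of this list lay within 1 kb of snRNA:7SKa, whose RNA holds back the elongation factor P-TEFb. Its summit (3R, 7473951) had a signal of 338.2 in replicate 1, 292.5 in replicate 2 and 632.9 in the pooled list, rank 109. This summit was nearer to a TSS of the protein-coding gene CG1142 than to snRNA:7SKa, whose nearest IDR summit was 400 bp away. The 3 U6 spliceosomal RNA genes snRNA:U6:96Aa, snRNA:U6:96Ab and snRNA:U6:96Ac shared 1 summit (3R, 24557088), with 57.0 in replicate 1, 36.5 in replicate 2 and 93.9 in the pooled list. For the signal recognition particle RNA genes the nearest IDR summit was 1329 bp from 7SLRNA:CR42652 and 3698 bp from 7SLRNA:CR32864. It was 2911 bp from RNaseMRP:RNA, 30104 bp from RNaseP:RNA, 5456 bp from snRNA:U6atac and 12218 bp from snRNA:7SKb.

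The 96 annotated 5S ribosomal RNA genes form an array on 2R (19729562 to 19766278), next to the cluster of glutamate and initiator methionine tRNA genes. The nearest IDR summit to the array lay 2324 bp away, the one beside tRNA:Glu-TTC-1-5. Within 1 kb of the array there was 1 region of the pooled list, and there were 0 in replicate 1 and 0 in replicate 2. How reads that match several copies were handled is not given in the sources used here.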
